A study of Mus musculus with 20 samples.

Results

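The genes examined are 10 genes of lens fibre structure and late fibre differentiation: Bfsp1, Bfsp2, Vim, Tmod1, Dnase2b, Birc7, Grifin, Lgsn, Lctl and Tdrd7. They were taken by name and not by a cut on their values, but with earlier results of these data known. Of the 10 genes 8 had annotated probe sets on the array, 11 probe sets in all, out of 18193 genes. All 8 passed the filter on low values, against 11859 of the 18193 genes. Lgsn and Lctl were not analysed here.

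The measurements were deposited log2 expression values from Affymetrix mouse arrays hybridised with lens RNA, 1 array per mouse, and a difference of 1 on this scale is a doubling. The triple knockout (TKO) lenses carried Cry-Cre, null alleles of E2F1 and E2F2, and floxed E2F3, and were taken at birth (P0, 5 arrays) or at embryonic stage E17.5 (5 arrays). The control lenses were E2F2 null at the same stages, with 5 arrays each. Loss of E2F2 was thus common to all 4 groups. Cry-Cre, named for a crystallin promoter, was listed for the knockouts only, so that E2F3 is lost only in cells where the Cre acts. The series asked which events come before the collapse of newborn lenses without the 3 E2F factors, which are transcription factors of cell cycle entry and DNA replication.

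During its life a lens fibre cell elongates, fills with crystallins and then destroys its nucleus and other organelles, so that nothing scatters light. Its shape is held by beaded filaments, an intermediate filament network made by Bfsp1 (filensin) and Bfsp2 (CP49), and by an actin and spectrin skeleton under the membrane. Vim (vimentin) forms ordinary intermediate filaments in the lens epithelium and in young fibres, and Tmod1 caps the slow-growing ends of the actin filaments. Dnase2b is the acid nuclease that digests fibre DNA when the nucleus is removed. Tdrd7 belongs to RNA granules that control messages in fibres, and its loss causes cataract in mice and people. Birc7 belongs to the inhibitor of apoptosis proteins, and Grifin is a lens protein related to the galectins. Lgsn is related to glutamine synthetase, and Lctl to the klotho proteins.

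The sequence upstream of the listed start is shown for the 3 genes on which the comparison of knockout and control lenses turned, as RefSeq gives it for GRCm38.p6. Each line holds the 250 bases before the start, 5′ to 3′ on the strand of the gene, and capitals mark a match to one of the searched motifs. The motifs were the 2 half-site pairs of a heat shock element (GAANNTTC and TTCNNGAA), a Maf element (TGCTGAC) and an E2F site (TTTNNCGC), each on both strands. The windows are chr3:146615599-146615848 on the minus strand for Dnase2b, chr4:45965085-45965334 on the plus strand for the first of 3 listed starts of Tdrd7, and chr2:13574061-13574310 on the plus strand for Vim.
Dnase2b: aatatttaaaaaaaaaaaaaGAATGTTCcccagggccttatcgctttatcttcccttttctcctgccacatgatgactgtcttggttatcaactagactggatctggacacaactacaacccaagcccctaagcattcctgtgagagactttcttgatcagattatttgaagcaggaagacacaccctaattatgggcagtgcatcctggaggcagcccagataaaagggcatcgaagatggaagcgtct
Tdrd7: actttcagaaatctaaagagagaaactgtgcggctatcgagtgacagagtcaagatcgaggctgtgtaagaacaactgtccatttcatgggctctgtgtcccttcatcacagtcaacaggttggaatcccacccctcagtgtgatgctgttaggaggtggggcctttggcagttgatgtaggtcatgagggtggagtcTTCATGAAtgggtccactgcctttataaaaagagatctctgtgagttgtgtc
Vim: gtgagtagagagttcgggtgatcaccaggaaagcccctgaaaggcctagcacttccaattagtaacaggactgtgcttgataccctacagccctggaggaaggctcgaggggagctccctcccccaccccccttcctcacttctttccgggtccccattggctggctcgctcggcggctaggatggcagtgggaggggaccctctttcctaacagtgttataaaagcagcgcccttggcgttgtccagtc
The Dnase2b window held GAATGTTC, its first base at position -230 from the start, and 6.69% of the 32851 promoter windows of this length held GAANNTTC. The Tdrd7 window held TTCATGAA at position -52, and 7.17% of the windows held TTCNNGAA. The Vim window held none of the motifs searched. Of the other members, the Lctl window held TGCTGAC at -73, which 3.81% of the windows held. None of the members' windows held TTTNNCGC, against 4.28% of all windows. A match is only a run of letters, and no measurement here bears on what binds there.

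Before the members, the arrays themselves were compared. E2f1 had 7.55 to 7.95 in TKO lenses and 7.15 to 7.24 in control lenses at E17.5, a difference of 0.60 ± 0.08 (SE; limma with Benjamini-Hochberg adjustment, adjusted p = 0.00788). At P0 it was higher by 0.44 ± 0.09 (adjusted p = 0.00263, limma). E2f2 and E2f3 passed the test at neither stage. Whether these probe sets lie in the deleted parts of the genes is not given, so the level of a deleted gene does not check the labels here, and TKO means the arrays labelled so. Of the 5 TKO E17.5 arrays, replicates 24 and 27 were closer by correlation to control E17.5 arrays than to the rest of their group. The member and list results at E17.5 are given also without them, an alternative chosen after the data were seen. Against the control mean of the stage, retina markers differed by -0.41 and -0.06 and pigment cell markers by -0.55 and -0.65 in replicates 24 and 27. In replicates 25, 26 and 28 retina markers were higher by 1.73, 1.26 and 0.51, and pigment cell markers by 0.91, 0.62 and 0.95. That alternative thus keeps the TKO arrays with more signal of other tissue, whose part was not tested. The labels call the samples epithelial cells. The crystallin list averaged 14.1 to 14.5 in every array, the 7 lens fibre markers 13.6 to 14.1 and the 8 lens epithelial markers 9.06 to 10.37, and no gene of these 3 lists lay below the array median in every array of a group. Levels of different probe sets cannot be set against each other, so these values give no share of either cell type. Whole-lens RNA cannot tell fewer cells of a type from less RNA per cell.

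The one member called between the genotypes was Dnase2b at birth. Its level was 10.27, 9.97, 10.21, 10.49 and 9.78 in the 5 TKO P0 lenses, against 10.38, 10.49, 10.63, 10.56 and 10.67 in the 5 control P0 lenses. Of the 5 TKO lenses 4 lay below every control, and the highest TKO lens, replicate 21, lay above 2 of the controls. The means were 10.14 ± 0.27 in TKO and 10.55 ± 0.12 in control (SD, n = 5 each). Dnase2b fell by 0.40 ± 0.12 (SE; 95% confidence interval -0.67 to -0.14; limma adjusted p = 0.0216), a change of -24.4% in level. It was 1 of 8 members called at P0, where 39.6% of all 11859 genes were called (2399 higher and 2301 lower). The members' share was lower, but 8 genes are few and the difference in share was not tested. The call was lost without control P0 replicate 6 (-0.38, adjusted p = 0.0508, limma) and without TKO P0 replicate 18 (-0.36, adjusted p = 0.0525). It was also lost when all 20 arrays shared one spread (adjusted p = 0.0613).

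At E17.5 the same gene had 10.23, 9.54, 9.72, 9.98 and 10.58 in TKO lenses, against 10.45, 9.95, 10.16, 9.94 and 10.06 in control lenses. Both the lowest values and the highest one were in TKO lenses, and the difference was -0.10 ± 0.18 (limma adjusted p = 0.745), or -0.17 without TKO replicates 24 and 27 (adjusted p = 0.601). The genotype difference at P0 minus that at E17.5 was -0.30 ± 0.23 (adjusted p = 0.543, limma on all 20 arrays), so a larger deficit at birth was not shown. Hsf4, a heat shock factor that mouse lenses are known to need for Dnase2b expression, is given outside the naming rule. It had 8.88 ± 0.13 in TKO and 8.94 ± 0.08 in control lenses at P0 (SD, n = 5 each; limma adjusted p = 0.607). A link between Hsf4 and the Dnase2b level was not tested.

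**Figure D1:**
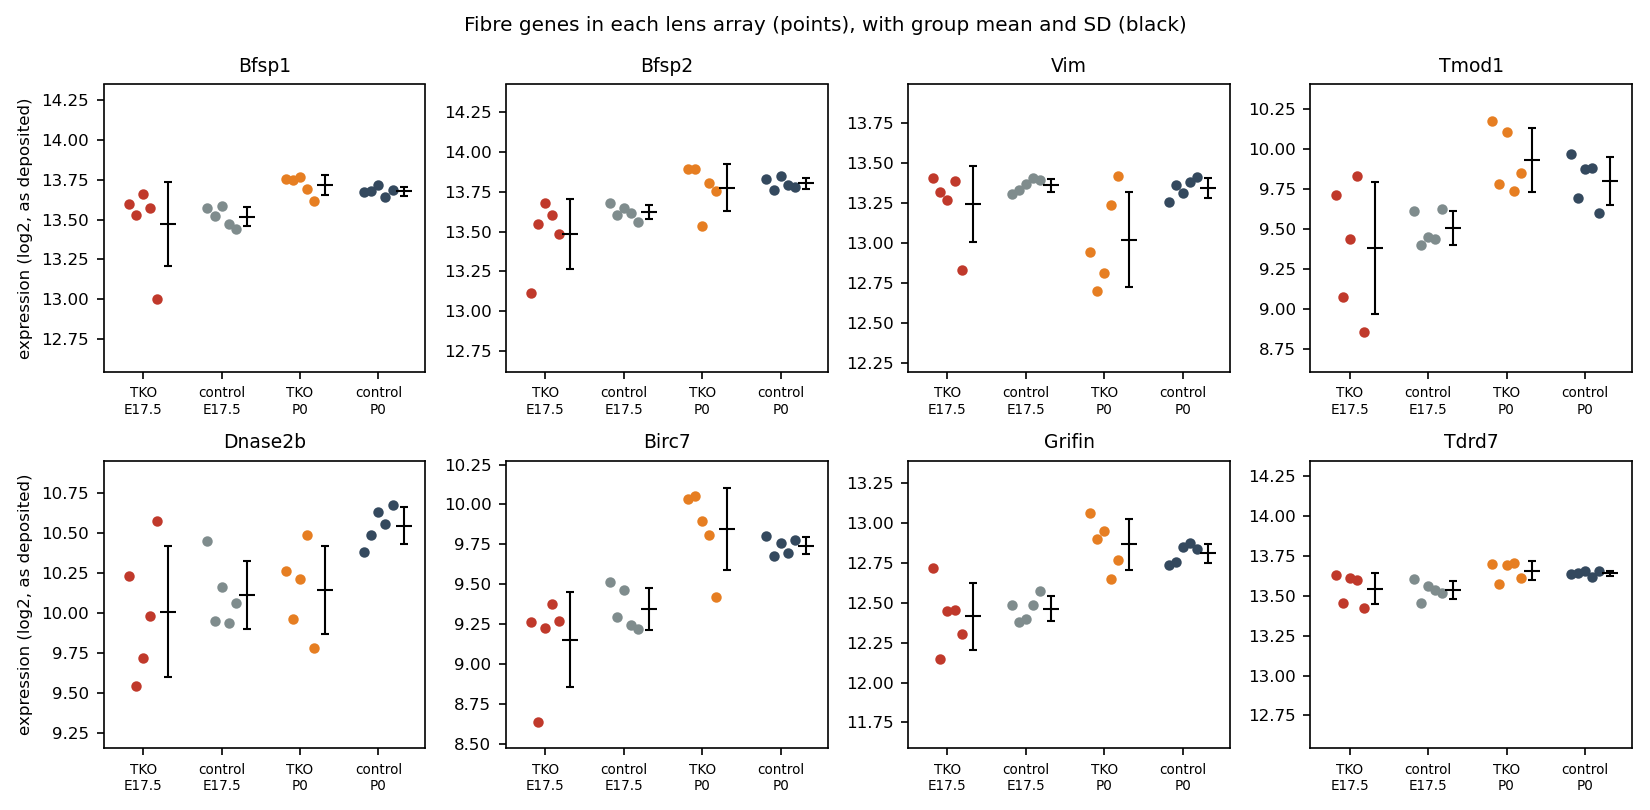
Deposited log2 expression of the 8 members in each array (points), with the group mean and SD of 5 arrays in black, and every panel spanning the same range of log2 units. Dnase2b in TKO P0 lenses averages 10.14 against 10.55 in controls, and in each panel the TKO points of a stage spread wider than the control points.

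No member passed the test at E17.5. With limma 0 of 8 were called, 0 had an unadjusted p below 0.05, and the smallest adjusted p was 0.371, where 2.89% of all genes were called (188 higher and 155 lower). Of the 8 differences 7 were below 0, from -0.19 ± 0.13 for Birc7 to 0.01 ± 0.07 for Tdrd7, with a median of -0.11 against -0.03 over all genes tested. The groups overlapped for all 8, while 9.95% of all genes had groups without overlap. Without TKO replicates 24 and 27 still none was called, although 24.9% of all genes were, and Tmod1 was nearest (-0.38, limma adjusted p = 0.0553). All 8 differences were then below 0, from -0.38 to -0.04.

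The filament and membrane skeleton genes other than Vim gave intervals around 0 at P0. Bfsp1 had 13.75, 13.75, 13.77, 13.69 and 13.62 in TKO P0 lenses, against 13.67, 13.68, 13.72, 13.64 and 13.68 in control P0 lenses. The difference was 0.04 ± 0.05 (95% confidence interval -0.07 to 0.15), and the TKO values lay on both sides of the controls. Bfsp2, its partner in the beaded filament, differed by -0.03 ± 0.07, with 13.54 to 13.89 in TKO and 13.76 to 13.85 in control lenses. Tmod1 differed by 0.13 ± 0.10, with a 95% confidence interval of -0.10 to 0.36. No gene among these 3 passed the test (limma adjusted p from 0.347 to 0.791).

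Birc7 and Grifin also overlapped between genotypes at birth. Birc7 had 10.04, 10.05, 9.90, 9.81 and 9.42 in TKO P0 lenses, against 9.80, 9.68, 9.76, 9.70 and 9.78 in control P0 lenses, a difference of 0.10 ± 0.11 (limma adjusted p = 0.483). Of the TKO lenses 4 lay above every control and 1, replicate 22, below every control. Without that replicate Birc7 was higher in TKO lenses by 0.21 (limma adjusted p = 0.0257). Grifin had 12.65 to 13.06 in TKO and 12.73 to 12.87 in control lenses, a difference of 0.06 ± 0.08 (adjusted p = 0.601, limma).

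**Figure D2:**
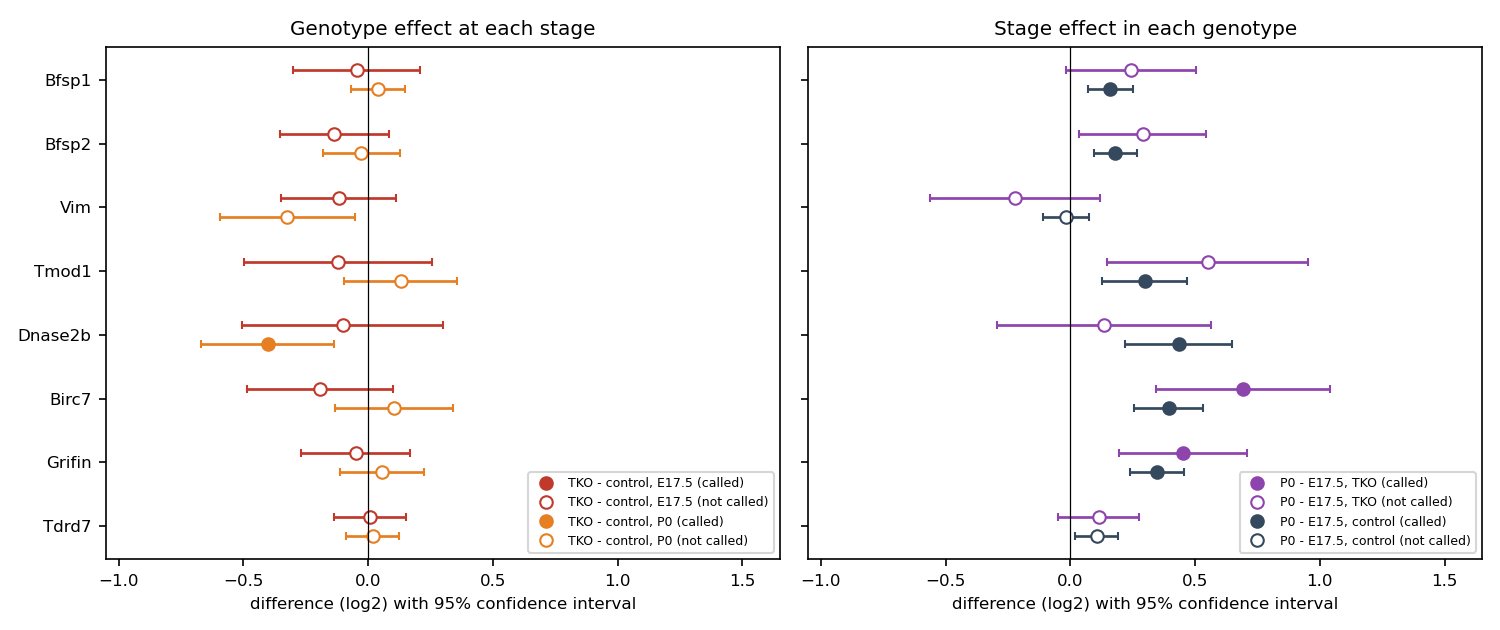
Differences of group means on the log2 scale with 95% confidence intervals for the 8 members, TKO minus control at each stage on the left and P0 minus E17.5 in each genotype on the right; filled points passed an adjusted p below 0.05. On the left only Dnase2b at P0 (-0.40) is filled, and on the right 2 members are filled in TKO and 6 in control lenses.

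Vim was measured by 3 probe sets, and in all of them the TKO means were below the control means at both stages. The brightest, the one tested among all genes, had 12.94, 12.70, 12.81, 13.24 and 13.42 in TKO P0 lenses, against 13.26, 13.36, 13.31, 13.38 and 13.41 in control P0 lenses. Replicates 17, 18, 19 and 21 lay below every control, and replicate 22 above them all. The difference was -0.32 ± 0.12 (limma adjusted p = 0.0560), which missed the threshold. It passed without TKO P0 replicate 21 (-0.38, adjusted p = 0.0331) or 22 (-0.42, adjusted p = 0.00727), and with all 20 arrays in the fit (adjusted p = 0.0400, limma).

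The other 2 Vim probe sets, 1438118_x_at and 1456292_a_at, derive from the same sequence accession and are not independent of each other. At P0 the first had 11.49, 11.38, 11.55, 11.52 and 11.79 in TKO lenses, against 11.90, 11.90, 11.98, 11.86 and 11.86 in control lenses. Every TKO value was below every control value for both of these sets at P0, as for 25.1% of all 20702 probe sets in either direction. The first fell by 0.35 ± 0.08 (exact two-sided permutation p = 0.00794, the smallest 5 against 5 arrays can give; adjusted p = 0.00410 in a limma fit of every probe set). The second fell by 0.42 ± 0.08 (exact permutation p = 0.00794, the smallest possible; limma adjusted p = 0.00236). In that fit 38.9% of the probe sets were called.

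At E17.5 the same pair of probe sets stood lower in TKO lenses too, by a smaller margin. The first had 11.76, 11.71, 11.66, 11.79 and 11.34 in TKO E17.5 lenses, against 11.93, 11.87, 11.91, 11.89 and 12.02 in control E17.5 lenses. These groups did not overlap, as for 11.2% of all probe sets, and the difference was -0.27 ± 0.09 (exact permutation p = 0.00794, the smallest possible; adjusted p = 0.0863 over every probe set, limma). For the second it was -0.25 ± 0.10 (exact permutation p = 0.0159; limma adjusted p = 0.142), with 1 TKO lens above the lowest control. Neither was called among all probe sets at this stage, where 7.42% were. Without TKO replicates 24 and 27 the differences were -0.352 and -0.355 (exact permutation p = 0.0179 for each, the smallest 3 against 5 arrays can give). Without replicate 28, the lowest TKO array of the first, they were -0.192 (exact permutation p = 0.00794) and -0.159 (exact permutation p = 0.0238).

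Tdrd7 gave a different answer for each of its 2 probe sets. The brighter one had 13.70, 13.57, 13.69, 13.71 and 13.61 in TKO P0 lenses, against 13.63, 13.64, 13.65, 13.62 and 13.65 in control P0 lenses. The difference was 0.02 ± 0.05 (95% confidence interval -0.09 to 0.12), and TKO values lay above and below the controls. The dimmer one, 1459216_at, had 7.53, 7.82, 7.80, 7.76 and 7.99 in TKO P0 lenses, against 8.18, 8.52, 8.62, 8.85 and 8.61 in control P0 lenses. All 5 TKO lenses were below all 5 controls, where 25.1% of all 20702 probe sets had groups without overlap in either direction. This probe set fell by 0.78 ± 0.12 (exact permutation p = 0.00794, the smallest possible, and limma adjusted p = 0.000725 over every probe set). In that fit 38.9% of the probe sets were called.

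The dimmer Tdrd7 probe set showed no such gap before birth. It had 8.42, 7.91, 8.45, 8.77 and 9.18 in TKO E17.5 lenses, against 8.76, 8.53, 8.45, 8.38 and 8.61 in control E17.5 lenses. The means were 8.54 ± 0.47 in TKO and 8.54 ± 0.15 in control lenses (SD, n = 5 each), with the TKO lenses on both sides of the controls, and without replicates 24 and 27 the difference was -0.03. The genotype difference at P0 minus that at E17.5 was -0.78 ± 0.24, which did not pass over every probe set (adjusted p = 0.132, limma), where 0.227% were called. The 2 probe sets derive from different accessions, and which transcripts each reads is not given here, so no single direction can be given for Tdrd7.

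**Figure D3:**
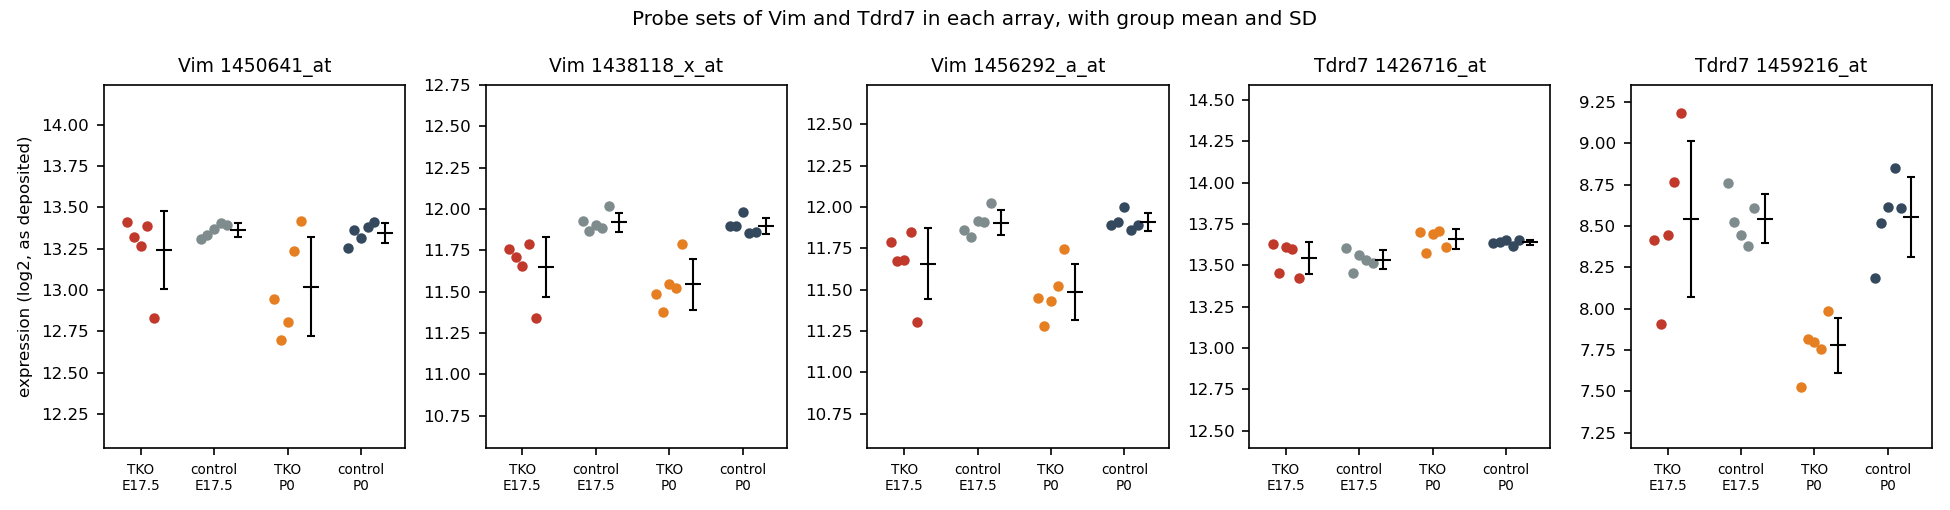
Deposited log2 expression of the 3 Vim and 2 Tdrd7 probe sets in each array (points), with the group mean and SD of 5 arrays in black. In Vim 1438118_x_at, Vim 1456292_a_at and Tdrd7 1459216_at the 5 TKO P0 points lie below the 5 control P0 points, which is not so for Vim 1450641_at or Tdrd7 1426716_at.

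Most of the members went up between the stages in control lenses. By limma 6 of 8 rose, where 37.4% of all genes were called and 12.5% rose, and 5 had no overlap between the stages, as did 24.9% of all genes. Birc7 rose by 0.39 ± 0.06 (adjusted p = 0.000838), Grifin by 0.35 ± 0.05 (adjusted p = 0.000490) and Dnase2b by 0.43 ± 0.10 (adjusted p = 0.00553). Tmod1 rose by 0.30 ± 0.08, Bfsp2 by 0.18 ± 0.04 and Bfsp1 by 0.16 ± 0.04. Tdrd7 was 0.11 ± 0.04 higher at P0 and missed the threshold (adjusted p = 0.0527, limma), which it passed without control E17.5 replicate 10 (adjusted p = 0.0307). Vim differed by -0.02 ± 0.04. With all 20 arrays sharing one spread 2 of these 6, Birc7 and Grifin, were called in control lenses, while 5 members were called in TKO lenses, as given with the TKO values. In that fit 2046 of all genes were called in control and 3940 in TKO lenses.

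For Grifin, Bfsp1 and Birc7 the stages did not overlap. Grifin had 12.73, 12.76, 12.85, 12.87 and 12.83 in control P0 lenses, against 12.48, 12.38, 12.40, 12.49 and 12.57 in control E17.5 lenses. Bfsp1 at E17.5 had 13.57, 13.52, 13.58, 13.47 and 13.44 in control lenses, all below the P0 values given above. Birc7 at E17.5 had 9.51, 9.29, 9.46, 9.25 and 9.22 in control lenses, again below every control P0 value. The stages overlapped for Dnase2b, with 10.38 to 10.67 at P0 and 9.94 to 10.45 at E17.5, and for Tmod1, although both passed the test. Markers of other tissue also moved with stage in control lenses. Of 15 retina markers 6 fell (median -0.66), as did 2 of 8 macrophage markers (median -0.79) and both blood markers tested (median -1.57), while 4 of 7 fibre markers rose. Over all genes 24.9% fell and 12.5% rose, so the macrophage count was near the share of all genes. With the retina mean as a covariate the same 6 members were called, with changes from 0.17 for Bfsp1 to 0.41 for Birc7 (limma adjusted p from 0.00367 to 0.0293). That fit called 3730 of all 11859 genes. The part of the macrophage and blood markers was not tested. The control P0 arrays that enter here are those of the genotype comparison at P0, so the Dnase2b rise with stage and its deficit in TKO lenses rest in part on the same 5 arrays.

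In TKO lenses 2 members rose between the stages, where 14.6% of all genes were called (5.80% rose). Birc7 rose by 0.69 ± 0.16 (limma adjusted p = 0.0209), without overlap, as for 11.8% of all genes. Its E17.5 values in TKO lenses were 9.26, 8.64, 9.22, 9.37 and 9.27. Grifin rose by 0.45 ± 0.12 (limma adjusted p = 0.0290), with 12.65 to 13.06 at P0 and 12.15 to 12.72 at E17.5. Tmod1 was higher by 0.55 ± 0.18 without passing (adjusted p = 0.0643, limma), and Dnase2b differed by 0.13 ± 0.20. The dimmer Tdrd7 probe set fell by 0.77 ± 0.20 (adjusted p = 0.0297 over every probe set, limma), where 13.3% of probe sets were called.

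These TKO calls were lost when single arrays were left out, while the changes stayed of about the same size. Birc7 did not pass without TKO P0 replicate 17 (0.64, adjusted p = 0.0614), 18 (0.64, adjusted p = 0.0557) or 19 (0.68, adjusted p = 0.0603, limma). Grifin did not pass without TKO P0 replicate 17, 18 or 19 or TKO E17.5 replicate 25 or 26, where its change was 0.38 to 0.46 (limma adjusted p from 0.0622 to 0.0803). In these 5 fits 440 to 742 of all genes were called, against 1728 with every array. Tmod1 gained a call without TKO E17.5 replicate 24 (adjusted p = 0.0499) or 27 (adjusted p = 0.0395, limma). With all 20 arrays sharing one spread Bfsp1 (0.24, adjusted p = 0.0419), Bfsp2 (0.29, adjusted p = 0.0155) and Tmod1 (0.55, adjusted p = 0.00857, limma) passed beside Birc7 and Grifin. The counts were thus 2 in TKO and 6 in control lenses in the separate fits, and 5 in TKO and 2 in control lenses in the shared fit. Which genotype had more calls turned with the fit, and it did so over all 11859 genes too. There 1728 were called in TKO and 4431 in control lenses in the separate fits, and 3940 and 2046 in the shared fit. Such counts are not themselves a difference between the genotypes. The test of that difference, the genotype by stage term over all 20 arrays, called 0 of 8 members (0 at an unadjusted p below 0.05), where 0.177% of all genes were called.

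The TKO lenses varied among themselves more than the controls for all 8 members at both stages. At E17.5 the median SD of the members was 0.251 in TKO and 0.0697 in control lenses, and the medians over all genes were 0.204 and 0.0963. At P0 it was 0.179 in TKO and 0.0570 in control lenses, with 0.150 and 0.103 over all genes. Of all genes, 87.6% had the larger SD in TKO lenses at E17.5 and 72.1% at P0, so the wider spread was not particular to the members.

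Different lenses were low for different members. TKO E17.5 replicate 28 had the lowest Bfsp1 (13.004), Vim (12.83) and Tmod1 (8.86) of its group, and the highest Dnase2b (10.58). Replicate 24 had the lowest Bfsp2 (13.11), although Bfsp1, its filament partner, was 13.59 in that lens. Replicate 25 had the lowest Birc7 (8.64) and Dnase2b (9.54) and lay below every control for 6 of the 8 members, as did replicate 28 for 6. Replicate 24 lay above every control for 5 members and below for 1, and replicate 26 above for 3 and below for 2. The same count over all genes is not given here, so these counts are a description of the lenses only. Replicates 25 and 28 also stood apart in marker levels. Against the control mean of the stage, replicate 28 was higher by 1.26 for the vessel list, 1.35 for macrophages, 1.56 for blood and 0.95 for pigment cells, and its epithelial list differed by -0.83 and its fibre list by -0.34. It also had the lowest correlation with its own group of any array (0.981). Replicate 25 was higher by 1.73 for the retina list and 0.91 for pigment cells. The part of these markers in the member values was not tested. Without replicate 28 the differences from control lenses at E17.5 were 0.07 for Bfsp1, -0.02 for Vim, 0.01 for Tmod1 and -0.25 for Dnase2b, with no member called (limma adjusted p from 0.307 to 0.975). Among the P0 lenses replicate 22 had the lowest Dnase2b, Birc7 and Bfsp1 but the highest Vim.

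**Figure D4:**
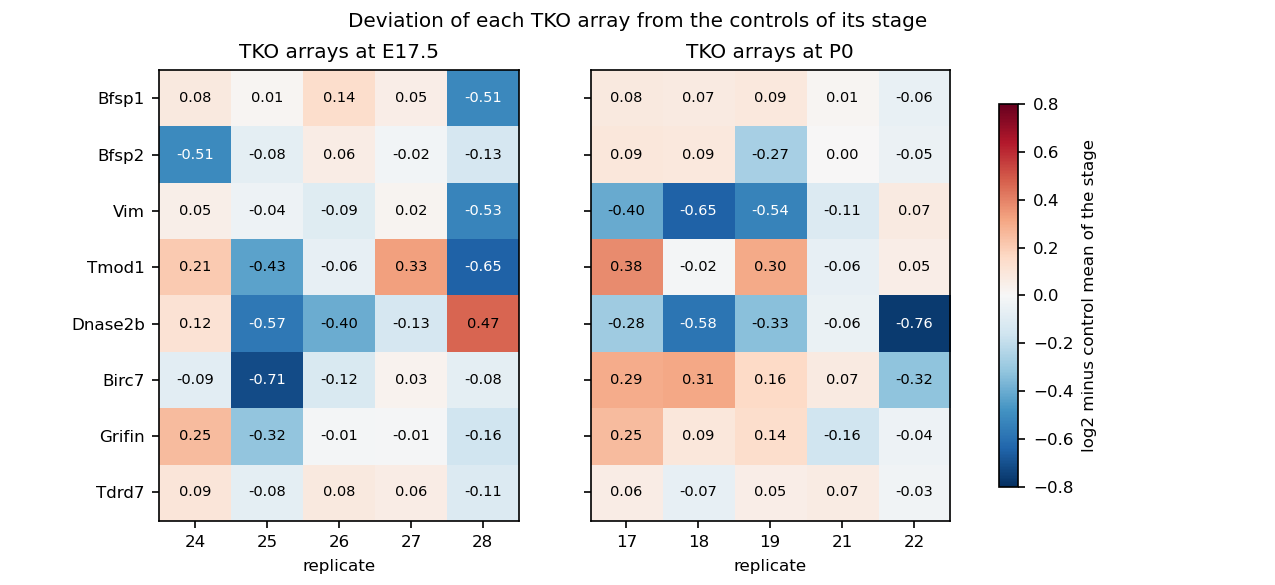
Deviation of each TKO array (columns, by replicate number) from the control mean of its stage for each member (rows), in log2 units from -0.8 (blue) to 0.8 (red). At P0 Vim is at least 0.40 below control in replicates 17, 18 and 19, while Dnase2b is lowest in replicate 22 (-0.76).

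Signs of other tissue moved with genotype at P0, the stage of the Dnase2b and Vim results. Over all genes 20.2% rose and 19.4% fell at that stage. Of 15 retina markers 13 rose and none fell (limma), and their mean level was 6.42 to 7.60 in TKO and 4.88 to 6.16 in control lenses. Pigment cell markers rose for 6 of 9 tested genes (means 7.65 to 8.30 in TKO and 6.64 to 7.17 in control), and macrophage markers for 4 of 8 (6.51 to 7.50 in TKO and 5.68 to 6.89 in control). Of 6 glial markers 4 rose and 2 fell, and 1 of 12 vessel markers fell. Of 8 epithelial markers 5 fell and 2 rose (9.06 to 10.03 in TKO and 9.99 to 10.33 in control), and of 7 fibre markers only Gja3, a gap junction protein, fell (by 0.42 ± 0.06). No retina, pigment, macrophage or epithelial marker lay below the array median in every array of a group at P0. With the retina mean as a covariate the Dnase2b difference was -0.53 (adjusted p = 0.125, limma) and that of Vim -0.24 (adjusted p = 0.494). That fit called 1088 of all 11859 genes, against 4700 without the covariate. The retina means of TKO and control lenses did not overlap at P0, so in this fit retina level and genotype are hard to tell apart. The part of the pigment, macrophage, glial and epithelial markers in these results was not tested.

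The balance of 5′ and 3′ signal of a control gene, often read as a sign of RNA quality, also differed. The log2 signal of the 5′ minus the 3′ Gapdh control probe set differed by 0.199 between TKO and control lenses at E17.5, with TKO higher, and by 0.180 in the same direction at birth (p = 0.00794 at each stage in an exact two-sided permutation test, the smallest that 5 against 5 arrays allow). The part of this difference in the member results was not tested.

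Around the members, the genes of the same structures and steps were counted from lists, which were chosen with earlier results of these data known. At P0 13 of 28 membrane skeleton and actin genes changed, where 39.6% of all genes were called (20.2% higher and 19.4% lower). Of these 10 fell and 3 rose, with a median of -0.08 against -0.01 over all genes. Epb41l2, a membrane skeleton linker, fell by 0.86 ± 0.16 (adjusted p = 0.00224) and Ank2, the ankyrin that ties spectrin to the fibre membrane, by 0.76 ± 0.13 (limma adjusted p = 0.00127). Tpm1, a tropomyosin that coats actin filaments, rose by 0.76 ± 0.12 (adjusted p = 0.00107), and Epb41l1 by 0.28 ± 0.09 (adjusted p = 0.0340, limma). The 3 rises became 1 without control P0 replicate 6, TKO P0 replicate 17 or TKO P0 replicate 18. With the retina covariate 0 of the 10 falls and 1 rise were called. Over all 11859 genes that covariate left 748 rises and 340 falls, against 2399 and 2301 without it.

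Among other intermediate filament genes and their linkers, 6 of 15 rose and 4 fell at P0, where 20.2% of all genes rose and 19.4% fell. Synm, a filament protein that pairs with vimentin, fell by 0.51 ± 0.08 (adjusted p = 0.000799, limma) and Gfap by 0.39 ± 0.07. Krt18, a keratin of simple epithelia, rose by 1.61 ± 0.16 (limma adjusted p = 0.000114) and Ina, a filament protein of neurons, by 1.25 ± 0.28. Gfap was also among the glial markers, and averaged 5.35 in TKO and 5.74 in control lenses. Krt18 averaged 6.75 in TKO and 5.14 in control lenses. The filter on low values lay at the array medians, which were 5.05 to 5.25. With the retina covariate 1 rise and 1 fall remained in this list's count, where 748 of all 11859 genes rose and 340 fell.

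Of 26 organelle removal and proteolysis genes 5 rose and 7 fell at P0, where 20.2% of all genes rose and 19.4% fell. Dnase2a, the widely expressed relative of Dnase2b, fell by 0.87 ± 0.11 (limma adjusted p = 0.000390), and it fell at E17.5 by 0.51 ± 0.08 (adjusted p = 0.0160). Epg5, an autophagy tether, fell by 0.57 ± 0.09. Plaat1, a phospholipase that takes part in organelle breakdown in fish lenses, rose by 0.65 ± 0.11, and Capn3, a calpain protease, by 0.45 ± 0.06 (limma adjusted p = 0.000580). The 7 falls became 4 without control P0 replicate 7, and the 5 rises became 9 without TKO P0 replicate 21. With the retina covariate 2 rose and 2 fell, where 748 of all 11859 genes rose and 340 fell.

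RNA granule genes, the group of Tdrd7, had 4 rises and 6 falls of 24 at P0, against 20.2% and 19.4% of all genes. Rbm24, an RNA-binding protein of the developing lens, fell by 0.83 ± 0.12 (limma adjusted p = 0.000600) and Ybx3 by 0.23 ± 0.05. Caprin2, an RNA-binding protein with a known part in mouse lens development, rose by 0.37 ± 0.08 at P0 and by 0.40 ± 0.08 at E17.5 (adjusted p = 0.0270, limma), and Lsm1 rose by 0.31 ± 0.05 at P0. With the retina covariate 1 rise and 1 fall were called, where 748 of all 11859 genes rose and 340 fell.

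Of 10 relatives of Birc7, Grifin, Lgsn and Lctl, 4 rose and 2 fell at P0, where 39.6% of all genes were called. Birc2 and Birc6, inhibitors of apoptosis, fell by 0.35 ± 0.07 and 0.48 ± 0.10, while Lgals8, a galectin, rose by 0.33 ± 0.07. Glul, glutamine synthetase, rose by 1.47 ± 0.25 (limma adjusted p = 0.00137), and it was also on the glial marker list. With the retina covariate 1 rise and 0 falls were called, where 748 of all 11859 genes rose and 340 fell.

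Of 15 fibre regulators 9 fell and 2 rose at P0, with a median of -0.39 against -0.01 over all genes, of which 20.2% rose and 19.4% fell. Maf, which drives crystallin genes, fell by 0.92 ± 0.12 and Sox1 by 0.87 ± 0.06 (limma adjusted p = 0.000398 for Maf). Meis1 rose by 0.44 ± 0.07 and Pax6, also an epithelial marker and a retina gene, by 0.41 ± 0.09. With the retina covariate 3 falls and 0 rises were called, where 340 of all 11859 genes fell and 748 rose. Of 14 crystallins 1 rose and none fell.

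At E17.5 the 6 lists held 4 calls among 118 entries tested (3.39%), where 2.89% of all genes were called (limma), and the retina markers were then 5.84 to 7.98 in TKO and 5.61 to 6.69 in control lenses, with 0 of 15 called. Besides Dnase2a and Caprin2, Tpm1 rose by 0.47 ± 0.09 (adjusted p = 0.0270) and Prox1, a homeobox factor that fibres need to elongate, by 0.46 ± 0.10 (adjusted p = 0.0398). Each of the 4 counts became 0 without any 1 of several arrays, control E17.5 replicates 11, 13 and 15 among them. Without TKO replicates 24 and 27 the calls were 16 rises and 26 falls (35.6% of entries, where 24.9% of all genes were called). The membrane skeleton list then had 2 rises and 6 falls, organelle removal 3 and 7, and the fibre regulators 3 and 7. With all 20 arrays in the fit there were 8 rises and 7 falls (12.7% of entries, where 13% of all genes were called). The genotype by stage term called no gene of any of these lists.

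**Figure D5:**
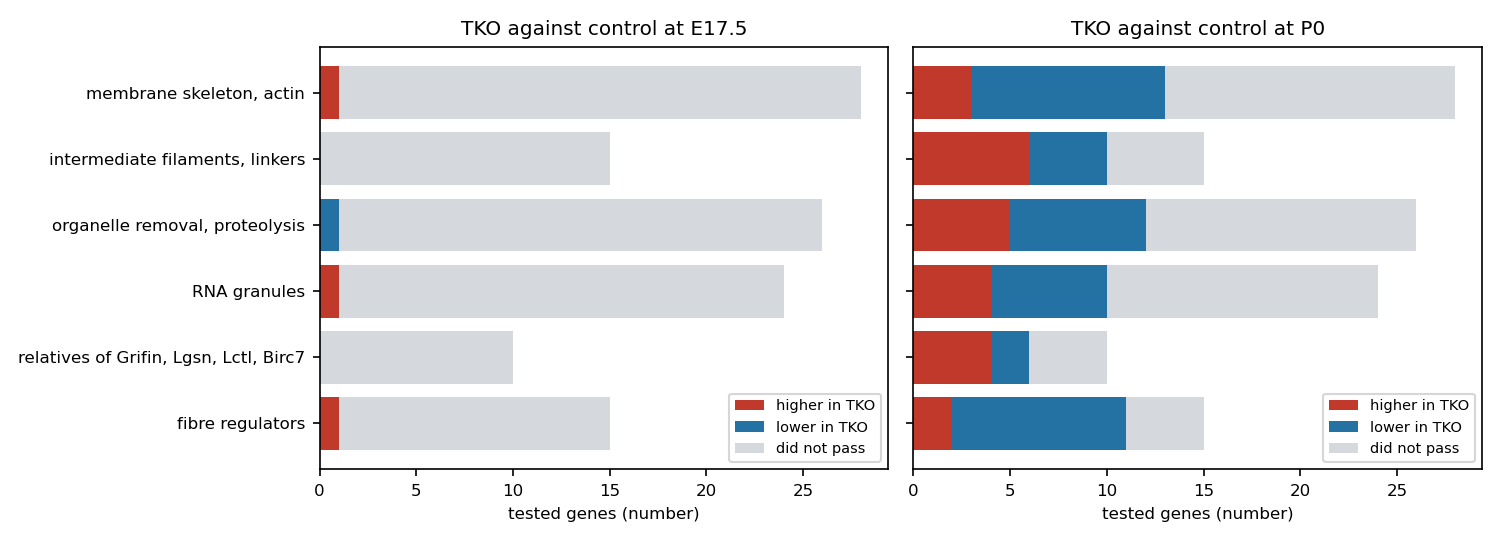
Number of tested genes in each related list that were higher (red) or lower (blue) in TKO than in control lenses at an adjusted p below 0.05, with the rest in grey, at E17.5 (left) and P0 (right). At P0 the membrane skeleton list has 10 lower and 3 higher of 28, and the fibre regulators 9 lower and 2 higher of 15.

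The genes whose pattern over the 20 arrays was nearest to that of Dnase2b, by the root mean square difference of mean-centred log2 values among 11851 genes, were Hint3 (0.161), Tbc1d7 (0.177) and Mtarc2 (0.183). Hint3 averaged 7.66 in TKO and 7.82 in control lenses at P0, and 7.43 in TKO and 7.53 in control lenses at E17.5. This is a description over samples that share stage and genotype.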

How the data were processed

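Lens RNA of 20 mice was measured, 1 array per sample, in 4 groups of 5, and per the labels' protocols both lenses of the mouse went into its sample, with cRNA made from 2 ug of total RNA. The authors deposited log2 values, 45101 probe sets by 20 arrays, from 1.72 to 15.0; the scale was read from the values, and for background correction, summary and normalization the steps are not stated in the labels or headers. Values were used as deposited. Array medians were 5.05 to 5.25. For arrays, their number limits the precision, and the labels give no litter, sex, strain or batch.

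Probe sets were named from the platform annotation, which gave 34945 a single gene, 932 several and 9160 none, with symbols updated through a RefSeq table. Each gene was read from its probe set of highest mean and tested where that lay above the array median in at least 5 of 20 arrays. limma (3.58.1, in R 4.3.3) was fitted to the 10 arrays compared (8 residual degrees of freedom), or to all 20 for the genotype by stage term (16), two-sided, with Benjamini-Hochberg adjustment over the 11859 genes, and called at an adjusted p below 0.05. Only the groups compared entered a fit because the spread of the groups was known to be unequal. Within a fit of TKO against control the genotypes still shared a common spread, although theirs were unequal. Second probe sets had an exact permutation test over samples and a limma fit of every probe set. Each p-value sets a difference of means against the variation between these mice.

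The members and the 20 gene lists were chosen with earlier results of these data known. Named are all members, and in each related list the 2 risen and 2 fallen genes of smallest adjusted p at each stage. For a called member the 3 genes nearest in pattern are named. The fits were tested on simulated data. Alternatives were quantile normalization, median centring, no filter or a stricter one (75th percentile), and other choices of probe set. Further ones were a retina covariate, all 20 arrays in the fit, and each array left out. Weights per group were used for the genotype by stage term only.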

Additional observations from a re-analysis of the deposited data

Results flagged for a closer look

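Of 44 groups of 5 arrays checked, 1 for each member probe set and group, 3 held a value standing apart from the other 4 by a gap above Dixon's 95% critical value, and chance alone marks about 1 group in 20. All 3 were in TKO E17.5 lenses. Bfsp1 was 13.004439 in replicate 28, against 13.53 to 13.66 in the other TKO lenses. Vim (1450641_at) was 12.832574 in that same lens, against 13.27 to 13.41. Birc7 was 8.635145 in replicate 25, against 9.22 to 9.37. In control E17.5 lenses Bfsp1 had 13.44 to 13.58, Vim 13.31 to 13.40 and Birc7 9.22 to 9.51. Replicate 28 also had the lowest correlation with its own group of any array (0.981) and stood above the control mean of its stage by 1.26 for the vessel list, 1.35 for macrophages and 1.56 for blood. Replicate 25 stood above it by 1.73 for the retina list. The part of these markers in the 3 values was not tested.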

How the results depend on the processing

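No paired analysis was possible because the replicate numbers of the labels are not shared between groups. At E17.5 the 343 genes called became 580 with quantile normalization, 197 with median centring, 1537 with every probe set on its own, 96 with the retina covariate, 1541 with all 20 arrays in the fit and 2953 without TKO replicates 24 and 27, an alternative chosen after the data were seen. Leaving out 1 array gave 49 (control replicate 15) to 1129 (TKO replicate 27). At P0 the 4700 became 8060 with every probe set and 1088 with the retina covariate, and 3671 to 5071 with 1 array left out. The 21 of the genotype by stage term became 47 with every probe set, 4 with the retina covariate, 0 with weights per group and 45 without TKO replicates 24 and 27, and 0 to 321 with 1 array left out. Between stages in TKO lenses the 1728 became 2644 without a filter, 884 with the stricter filter, 2757 with every probe set and 3940 with all 20 arrays, and 440 to 2716 with 1 array left out. In control lenses the 4431 became 7140 with every probe set and 2046 with all 20 arrays, and 3669 to 4443 with 1 array left out. Every probe set tests 20702 features in place of 11859; the other causes were not tested. Of the members, Tdrd7 at P0 turned to -0.38 (limma adjusted p = 0.00146) with the mean of its probe sets, whose dimmer one was far lower in TKO lenses. Vim at P0 passed with that mean (-0.37, adjusted p = 0.00708), quantile normalization (-0.38, adjusted p = 0.0353) and the stricter filter (adjusted p = 0.0467). Tmod1 between stages in TKO lenses passed with quantile normalization and the retina covariate, and without TKO replicates 24 and 27, and Grifin there did not with median centring (adjusted p = 0.0623). With all 20 arrays in the fit 5 members rose between stages in TKO lenses and 2 in control lenses, against 2 and 6 in the separate fits. The P0 list counts without 1 array ranged from 7 to 11 falls in the membrane skeleton list and from 9 to 10 among fibre regulators.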
